A study of Mus musculus with 2 samples.

Results

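Inhibitory checkpoint genes encode receptors that dampen activated T cells and the ligands that engage them. The genes described are the PD-1 receptor (Pdcd1) with its ligands PD-L1 (Cd274) and PD-L2 (Pdcd1lg2), the receptors Ctla4, Lag3, Havcr2 (TIM-3), Tigit, Cd160 and Btla, and the ligand gene Cd200. Members were every probe set (the short probes that together measure 1 transcript) that the platform annotation assigned to exactly 1 of these 10 symbols. This gave 12 probe sets for 9 genes, of 34945 probe sets that named 1 gene and 18193 genes on the array. Tigit was not analysed here. Of the 9 genes, 8 had 1 probe set, and Cd160 had 4.

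The study measured mouse T cells with 1-colour Affymetrix arrays. One group, of 1 array, was control T cells, and the other, also of 1 array, was T cells that had met retinal pigment epithelium (RPE), a pigmented cell sheet lining the retina that is known for suppressing T cells in the eye. Both samples were labelled as male, on a C57 BL/6 background and 6 weeks old. The title of the control reads CD4 T cells, whereas that of the exposed sample reads T cells and its tissue field names primary cultured RPE. The sources used here do not give the number of mice, the length of exposure or any T-cell stimulus. With 1 array per group no difference could be set against a spread between samples, so no test was made and no p-value is given. The number of arrays limits the precision, and every value stands for a single array.

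Checkpoint receptors are mostly induced when a T cell is activated, and recruit phosphatases or compete with costimulatory receptors so that signalling through the T-cell receptor is reduced. Their ligands sit on antigen-presenting cells, B cells, epithelia and on T cells themselves. PD-L1 is induced by interferon-gamma in many cell types, and cultured RPE is known to use it against T cells. In an RNA sample of whole cells, fewer cells of a type and less RNA per cell cannot be told apart.

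The stretch of DNA just before the start site of 4 genes is shown because the receptor gene of the PD-1 axis and its ligand genes differed in opposite directions between the samples, and Cd200 had the most negative difference of the group. The sequences are the 140 bases before the start, on the gene's own strand, from RefSeq on build GRCm38.p6. They are chr1:94052554-94052693 on the minus strand for Pdcd1, chr19:29367298-29367437 on the plus strand for Cd274, chr19:29410779-29410918 on the plus strand for Pdcd1lg2, and chr16:45409054-45409193 on the minus strand for Cd200. Capitals mark GGAAA, the core bound by NFAT factors of T-cell activation, and GAAANNGAA, the core bound by interferon regulatory factors, on either strand.
Pdcd1: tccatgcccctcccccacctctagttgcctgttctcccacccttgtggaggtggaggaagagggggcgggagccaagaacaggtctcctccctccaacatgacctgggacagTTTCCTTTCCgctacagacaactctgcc
Cd274: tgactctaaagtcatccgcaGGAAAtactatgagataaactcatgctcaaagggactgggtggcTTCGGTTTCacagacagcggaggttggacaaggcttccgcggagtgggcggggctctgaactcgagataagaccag
Pdcd1lg2: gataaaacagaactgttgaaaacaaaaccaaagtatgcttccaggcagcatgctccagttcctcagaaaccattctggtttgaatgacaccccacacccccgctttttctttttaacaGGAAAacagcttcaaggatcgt
Cd200: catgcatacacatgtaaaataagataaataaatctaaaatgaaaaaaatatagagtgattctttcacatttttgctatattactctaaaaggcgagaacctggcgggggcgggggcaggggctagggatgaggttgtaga

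Pdcd1 held 2 matches side by side, from 28 to 19 bases before the start. Cd274 held 1 match, 120 to 116 bases before it, and Pdcd1lg2 held 1 match, 22 to 18 bases before it. The Cd200 window held none. GGAAA occurs in 35.4% of all 32851 RefSeq windows of the same length, so its presence in 3 of these 4 genes describes the letters only. GAAANNGAA occurs in 3.67% of windows and, of the 4, only in that of Cd274, 76 to 68 bases before the start. A stricter form with both half-sites complete (in 1.47% of windows) had no match in the 4 windows, and neither had the GAS element of STAT factors (TTCNNNGAA, 3.75%) or the AP-1 site (TGANTCA, 3.99%). All were searched on both strands, and the interferon regulatory factor letters can overlap a GGAAA core.

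Of the checkpoint genes, Pdcd1 and Havcr2 were higher and Cd200, Cd274 and Pdcd1lg2 lower in RPE-exposed T cells by 1.26-fold to 1.52-fold, and the remaining 4 differed by less. A gene was compared where its signal was at or above a floor, set at each array's median probe set (15.9 in control and 16 in exposed T cells), on at least 1 array. All 9 genes lay at or above the floor on both arrays, and 10 of their 12 probe sets did. None of the 9 was at least 2-fold different, beside 1.06% of the 11015 genes compared, so a count of 0 of 9 is near the background and is no result about these genes. With a size rule of 1.5-fold, chosen after the values were seen, 2 of 9 passed (Pdcd1 and Havcr2, both higher in exposed cells). The share of all compared genes past 1.5-fold was 6.93% (3.11% higher and 3.81% lower). Neither gene passed 1.5-fold with 16 added to each signal before the logarithm, where Pdcd1 gave 0.52 and Havcr2 0.33 on the log2 scale. Log2 differences, given throughout as RPE-exposed minus control, ran from -0.55 to 0.61 with 4 positive and 5 negative. Their median was -0.068, and that of all genes compared was -0.0092.

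**Figure D1:**
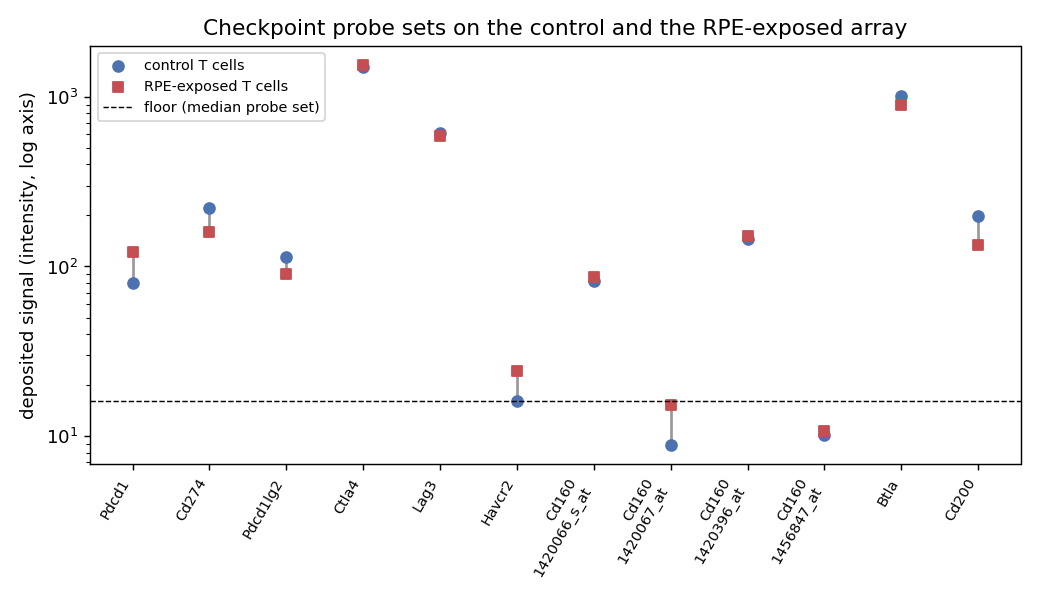
Deposited signal (intensity, log axis) of the 12 checkpoint probe sets on the control array (circles) and the RPE-exposed array (squares), with the floor as a dashed line drawn at 16. The pairs nearly coincide for Ctla4, Lag3 and the 2 brighter Cd160 probe sets, Pdcd1 and Havcr2 are higher in exposed cells, Cd274, Pdcd1lg2 and Cd200 are lower, and 2 Cd160 probe sets lie under the floor.

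The PD-1 receptor gene and its ligand genes went in opposite directions. Pdcd1, whose product recruits the phosphatase SHP-2 to the T-cell receptor, was measured at 79.8 in control and 121.5 in RPE-exposed T cells, 1.52-fold higher. The log2 difference was 0.61. To judge such a value within this pair of arrays, each gene was set beside the central 95% of differences among genes in the same twentieth of mean signal, called its like-level range. For Pdcd1 this range was -0.65 to 0.52, over 551 genes, so Pdcd1 lay above it. Of all genes compared, 5.06% lie outside their range, a share set by how the range is built, and of the 9 checkpoint genes Pdcd1 and Cd200 did.

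Cd274 encodes PD-L1, the broadly expressed ligand of PD-1. Its signals were 220.5 in control and 159.3 in exposed cells, 1.38-fold lower. Its log2 difference of -0.47 lay inside the like-level range of -0.53 to 0.54. Pdcd1lg2 encodes PD-L2, a ligand found mainly on dendritic cells, macrophages and some B cells. It had signals of 113.3 and 89.7, which is 1.26-fold lower, with a log2 difference of -0.34 and a like-level range of -0.65 to 0.52. Both ligand genes were thus lower in the exposed sample by less than the spread of genes of like signal.

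Each of the 3 PD-1 axis genes rested on 1 probe set, so agreement between probe sets could not be examined for them. For other genes with several detected probe sets, the SD of log2 differences within a gene, pooled over genes, was 0.30 at signals under 100 and 0.20 at 100 to 500. The difference of Pdcd1 was larger than this SD at its level (0.61 beside 0.30), and so were those of Cd274 (-0.47 beside 0.20) and Pdcd1lg2 (-0.34 beside 0.20). Pdcd1 and Pdcd1lg2 each had 1 signal on either side of 100, so the SD set beside them depends on that cut. Beside the SD of 0.30 for signals under 100, the margin of Pdcd1lg2 would be small. This SD describes probe sets on 1 pair of arrays and holds no variation between cultures or mice.

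**Figure D2:**
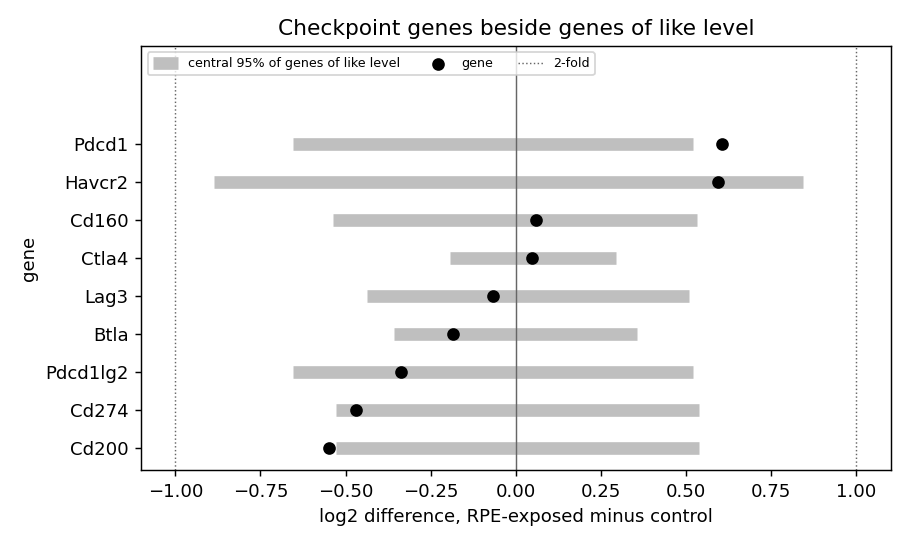
Log2 difference (RPE-exposed minus control) of the 9 checkpoint genes (points) beside the central 95% of genes of like mean signal (grey bars), with dotted lines at 2-fold. Pdcd1 lies above its bar and Cd200 just below its bar, and the other 7 genes lie inside theirs.

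CTLA-4 competes with the costimulatory receptor CD28 for the ligands CD80 and CD86. Ctla4 itself was nearly equal on both arrays, at 1493.3 in control and 1542.0 in exposed cells (log2 difference 0.05, like-level range -0.19 to 0.30). Cd28 was higher, at 1658.9 and 2319.2, and its 2 probe sets gave 0.36 ± 0.17 (SD). The related costimulatory gene Icos gave 1676.0 and 1635.2 (-0.04), with 3 probe sets that disagreed in sign. Of the receptor genes of this axis, Cd28 alone lay outside its like-level range (-0.19 to 0.30, with a log2 difference of 0.48).

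The ligand genes that CTLA-4 and CD28 share were lower. Cd86 had signals of 200.9 and 105.3, a log2 difference of -0.93 with a like-level range of -0.54 to 0.53, and its 2 probe sets gave -1.14 ± 0.29 (SD), so the mean of the probe sets passes 2-fold and the brighter one does not. Cd80 had signals of 39.0 and 27.8, a log2 difference of -0.49 inside its range, and -0.17 when its 4 probe sets were averaged. Antigen-presenting cells and B cells express both ligands, and most marker genes listed for these cells were lower in the exposed sample too (values below). The part of those cells in the lower Cd80, Cd86, Cd274 and Pdcd1lg2 signals was not tested.

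LAG-3 binds MHC class II and fibrinogen-like protein 1 and restrains T-cell expansion. Lag3 had signals of 615.8 in control and 587.5 in exposed cells, a log2 difference of -0.07 inside the like-level range of -0.44 to 0.51. Its class II ligand genes were lower. H2-Aa had signals of 1437.6 and 1080.8 with 4 probe sets at -0.59 ± 0.14 (SD), and H2-Ab1 had 481.7 and 312.8 with 3 probe sets at -0.58 ± 0.15 (SD). Fgl1, the other ligand gene, was under the floor on both arrays, at 4.7 and 5.5.

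TIM-3, the product of Havcr2, marks terminally exhausted T cells and binds galectin-9 and CEACAM1. Havcr2 was close to the floor, at 16.1 in control and 24.3 in exposed cells, 1.51-fold higher. Its log2 difference of 0.59 lay inside the wide range of genes at this signal, -0.89 to 0.84, and became 0.33 when 16 was added to each signal before the logarithm. Among ligand genes, Lgals9 gave 813.3 and 899.8 (0.15) and Ceacam1 gave 17.5 and 17.6 (0.01, from 1 of 8 probe sets). Lgals3, whose product galectin-3 binds LAG-3, was higher, at 472.1 and 755.1. Its log2 difference of 0.68 lay above the like-level range of -0.44 to 0.51, and rests on 1 probe set.

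BTLA and CD160 bind the same ligand, HVEM, which is encoded by Tnfrsf14. Btla, an inhibitory receptor of B cells and T cells, had signals of 1016.5 in control and 894.5 in exposed cells, a log2 difference of -0.18 inside its range of -0.36 to 0.36. Cd160, found on cytotoxic T cells and natural killer cells, had 2 probe sets at or above the floor on both arrays. The brighter gave 145.4 and 151.4, and the dimmer gave 82.4 and 87.2, so that both differences were small and positive, 0.070 ± 0.017 on the log2 scale (mean and SD). The remaining probe sets, at 8.9 and 15.2 and at 10.2 and 10.7, lay under the floor on both arrays. Tnfrsf14 was under the floor as well, at 1.1 and 1.5.

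TIGIT, CD96 and CD226 share the ligand CD155, encoded by Pvr. Among the genes measured, Cd96 had signals of 192.6 and 264.4, a log2 difference of 0.46 just inside its range of -0.52 to 0.46. Pvr gave 171.0 and 166.0, and its 5 probe sets at or above the floor disagreed in sign (-0.03 ± 0.26, SD). The activating receptor gene Cd226 (8.4 and 11.2) and the nectin ligand genes Nectin2 (10.3 and 10.3) and Nectin3 (7.1 and 7.3) were under the floor on both arrays.

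CD200 is a membrane protein of B cells, activated T cells, endothelium and neurons that restrains myeloid cells through the receptor CD200R. Cd200 signals were 197.2 in control and 134.7 in exposed cells, 1.46-fold lower. Its log2 difference of -0.55 lay just under the like-level range of -0.53 to 0.54 and rests on 1 probe set. The receptor gene Cd200r1 gave 31.1 and 39.1 (0.33), and its relative Cd200r4 gave 25.9 and 30.8 (0.25). Both lay inside their ranges and near the floor.

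**Figure D3:**
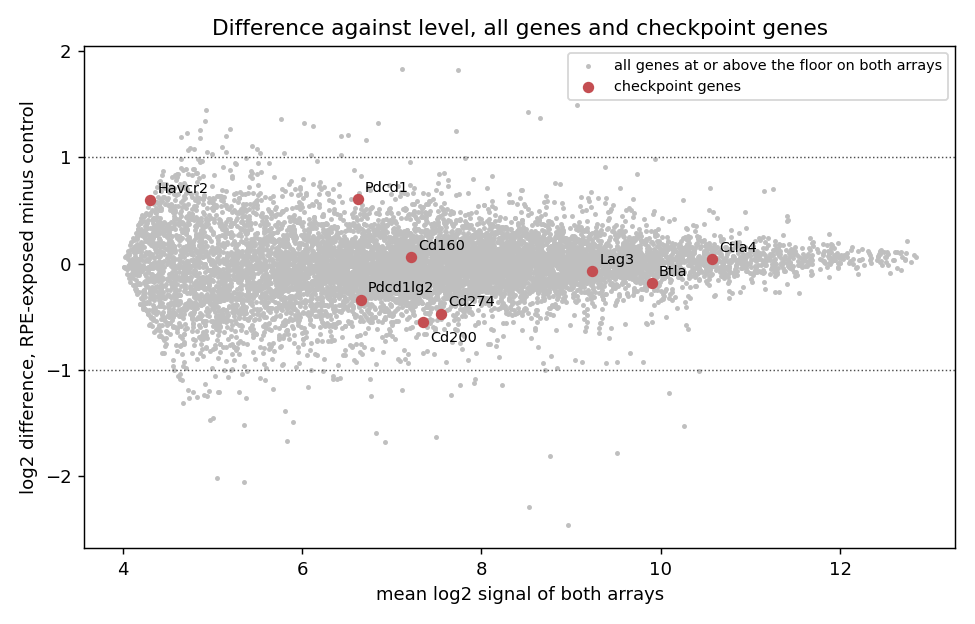
Log2 difference (RPE-exposed minus control) against mean log2 signal for all genes at or above the floor on both arrays (grey) and the 9 checkpoint genes (red, named), with dotted lines at 2-fold. The cloud narrows as the signal grows, Ctla4, Lag3 and Btla lie within its bright part, and Pdcd1 at 0.61 and Cd200 at -0.55 lie at its edges.

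Of the 18 binding partner genes on the array, 13 were compared, 7 with a positive and 6 with a negative difference, and none was 2-fold different, beside 1.06% of all genes. Their median was 0.0082, and that of all genes -0.0092. The partners outside their like-level ranges, where 5.06% of all genes lie, were Lgals3 and Cd28 on the higher side, and Cd86, H2-Aa and H2-Ab1 on the lower side. Hmgb1 was not analysed here.

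Other inhibitory receptor and B7 family genes were mixed. Of 15 on the array 11 were compared, with 7 positive and 4 negative differences, 1 at least 2-fold higher (0.436% of all genes were) and a median of 0.12. The 2-fold member was Lair1, a collagen-binding inhibitory receptor, at 19.3 and 43.8. Its log2 difference was 1.18, from the only 1 of its 3 probe sets at or above the floor on both arrays. It was 0.76 when 16 was added to each signal. Averaging the 3 probe sets, with signals under the floor set to it, gave 0.75. Without probe sets marked as shared it was 1.06, from a probe set under the floor on 1 array. Sla2, an adaptor that lowers T-cell receptor levels, gave 0.25. Cd244a (36.7 and 20.5, -0.84, but -0.27 without probe sets that are marked as shared and -0.53 with 16 added) and Klrg1 (33.2 and 19.9, -0.74), receptors of natural killer cells and effector T cells, lay inside their wide ranges.

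Genes through which checkpoint receptors signal or are trafficked had small differences, from -0.51 to 0.07. All 16 on the array were compared, 5 positive and 11 negative, with a median of -0.033. None was 2-fold different, beside 1.06% of all genes. The most positive were Ap2m1, a subunit of the adaptor that internalises CTLA-4 (750.8 and 788.6, 0.07), and Inpp5d, the phosphatase SHIP-1 (267.9 and 278.4, 0.06). The most negative were Trat1, an adaptor of the T-cell receptor (48.8 and 34.3, -0.51), and Cmtm6, which protects PD-L1 from degradation (372.8 and 312.1, -0.26). The probe sets of Inpp5d and of Cmtm6 disagreed in sign. The phosphatase genes Ptpn6 (926.0 and 902.3) and Ptpn11 (371.3 and 344.7), which encode SHP-1 and SHP-2, differed by -0.04 and -0.11. These 2 were added to the named genes after their values were seen.

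Transcription factors of the checkpoint and exhaustion programme had a median of -0.012 over 20 genes, 9 positive and 11 negative, of which 1 was at least 2-fold lower (0.626% of all genes were). This was Nr4a3, an orphan nuclear receptor induced by T-cell receptor signalling, at 1349.4 and 393.2, a log2 difference of -1.78 from the only 1 of its 3 probe sets at or above the floor on both arrays. Averaged over its 3 probe sets the difference was -0.59. That average sets signals under the floor to the floor, so the probe sets that were not detected made it smaller. Nr4a2 was lower as well, at 85.8 and 43.7 (-0.97), but its 4 probe sets at or above the floor disagreed in sign and averaged -0.32 ± 0.58 (SD). Id3, an inhibitor of E-protein factors, gave 55.9 and 81.2 (0.54), and the interferon regulatory factor gene Irf2 gave 95.9 and 133.4 (0.48, just above its range of -0.59 to 0.47). Tox (53.7 and 52.5) and Eomes (101.0 and 108.9), factors of exhausted T cells, were named after their values were seen and differed by -0.03 and 0.11.

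A list of cytokine and interferon genes placed upstream of PD-L1, which also holds receptor chain and signalling genes, was lower in part. Of 14 compared, 11 were negative and 3 positive, 4 were at least 2-fold lower (0.626% of all genes were) and none higher, and the median was -0.57. Of all genes 51.5% had a negative difference. It was -0.24 once the floor was moved to the 75th percentile. Ifng, the main inducer of PD-L1, had signals of 1950.0 and 971.4 (-1.01), and was just under 2-fold after median centring or with 16 added (-0.99 in each). Il4 had 99.6 and 35.6 (-1.48), but -0.14 with the 75th percentile floor. The other two were Tnf (85.1 and 8.6) and Il2 (39.8 and 14.3), both under the floor in exposed cells, so that their folds are lower bounds. The receptor chain gene Ifngr1 gave 544.3 and 810.1 (0.57) and Il10 gave 140.6 and 237.3 (0.76), both above their ranges. Irf1, the interferon-induced factor that drives the Cd274 promoter, gave 895.5 and 847.7 (-0.08) and was named after its value was seen.

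**Figure D4:**
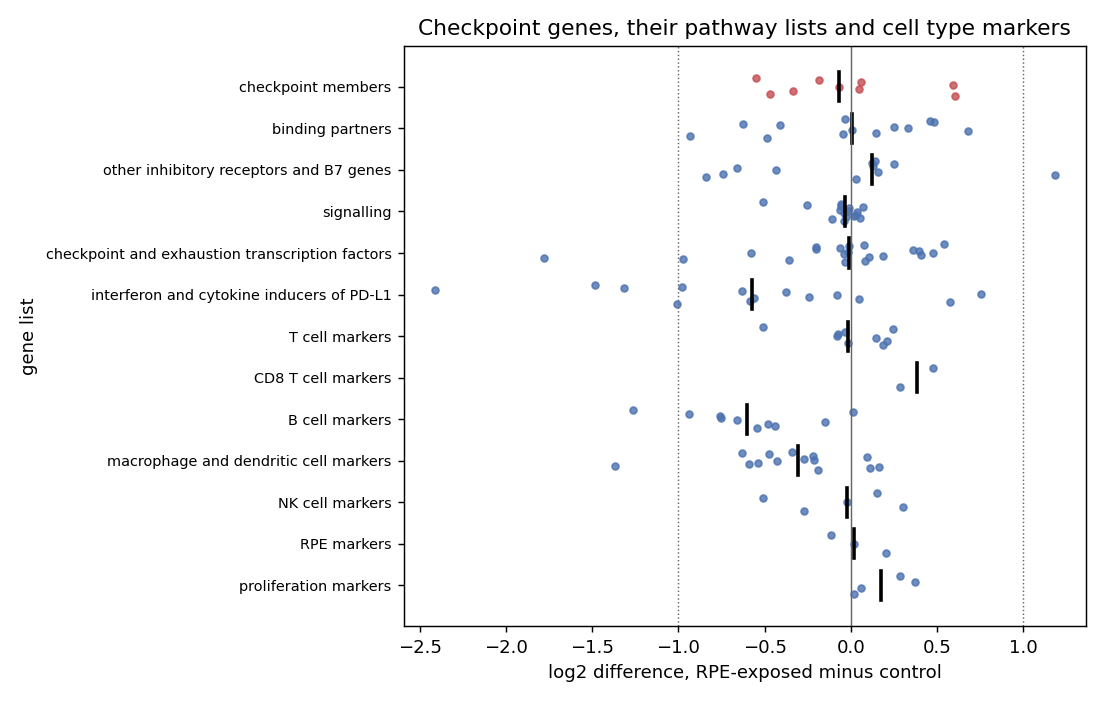
Log2 differences (RPE-exposed minus control) of the compared genes (points) in each gene list, with the median as a black bar and dotted lines at 2-fold. The checkpoint genes (red) centre at -0.068. The list of PD-L1 inducers, which includes receptor chain and signalling genes (-0.57), B-cell markers (-0.60) and macrophage and dendritic-cell markers (-0.30) centre lower.

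Markers of some cell types that express these genes differed between the samples. T-cell markers were nearly equal (9 compared, median -0.013, summed signal 11252.3 in control and 11911.8 in exposed cells). The CD8 genes Cd8a (568.8 and 694.6) and Cd8b1 (706.4 and 983.9) were well above the floor in both samples, also in the one titled as CD4 T cells. Cd8b1 differed by 0.48, above its like-level range of -0.36 to 0.36, and Cd8a by 0.29, inside its range. Cd4 gave 287.0 and 271.1, and its 2 probe sets disagreed in sign (0.26 ± 0.48, SD). B-cell markers were lower, 9 of 10 with a negative difference, median -0.60, summed signal 2526.2 and 1625.4. Only Cr2 of the 11 B-cell markers on the array was under the floor on both arrays. Macrophage and dendritic-cell markers had 11 of 14 negative and 3 positive, median -0.30, with Itgam and Fcgr3 under the floor. Their summed signal was 4506.2 and 3591.2, mostly from Cd74 (1448.2 and 1250.3), Ctss (1256.0 and 992.9), H2-Eb1 (707.7 and 457.1) and Cst3 (675.3 and 560.5). B cells also express Cd74, Ctss and H2-Eb1, so this sum is not particular to macrophages and dendritic cells. The positive ones, Csf1r (29.1 and 31.4), Adgre1 (15.2 and 17.8) and Fcgr1 (12.6 and 17.0), were near the floor. So were Itgax (19.4 and 17.0) and Cd14 (21.7 and 16.1), which were lower.

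Natural killer markers had a median of -0.023 over 5 genes, 2 positive and 3 negative. Their summed signal was 4846.7 and 5289.0, mostly from Gzma (3714.7 and 4122.5). Cytotoxic T cells also express Gzma, so this sum is not particular to natural killer cells. Ncr1 was near the floor and lower (21.5 and 17.8), and Klra1 was under the floor on both arrays. Of 15 RPE markers 12 were under the floor on both arrays, Rpe65 among them at 5.3 and 2.3, and the list's summed signal was 131.2 and 117.5. Proliferation markers had a median of 0.17, with all 4 positive. Birc5 (1257.9 and 1627.7, 0.37) and Mcm5 (1696.7 and 2071.2, 0.29) were higher. Mki67 (1500.5 and 1522.7, 0.02) and Top2a (2264.7 and 2357.1, 0.06) were nearly equal, and Mki67 became -0.01 under quantile normalization. No marker in these lists was listed at 0. The part of B cells, macrophages and dendritic cells in the lower Cd200, Cd274 and Pdcd1lg2 signals, and that of CD8 T cells in the higher Pdcd1 signal, was not tested.

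The direction of each checkpoint gene held under every processing alternative that gave a value, but most alternatives could not have reversed it. The 25th percentile floor, no floor and leaving out shared probe sets returned the reported value for every checkpoint gene. Averaging probe sets did so for the 8 genes with 1 probe set. Adding a constant to both signals before the logarithm cannot change a sign. Median centring and quantile normalization could have changed signs, and left each one as it was. Pdcd1 stayed positive, between 0.38 and 0.65. Cd274 stayed between -0.47 and -0.43, Pdcd1lg2 between -0.34 and -0.29, and Cd200 between -0.55 and -0.50. Ctla4 stayed between 0.0094 and 0.058. Agreement between settings of 1 pair of arrays is no measure of how another pair would come out.

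**Figure D5:**
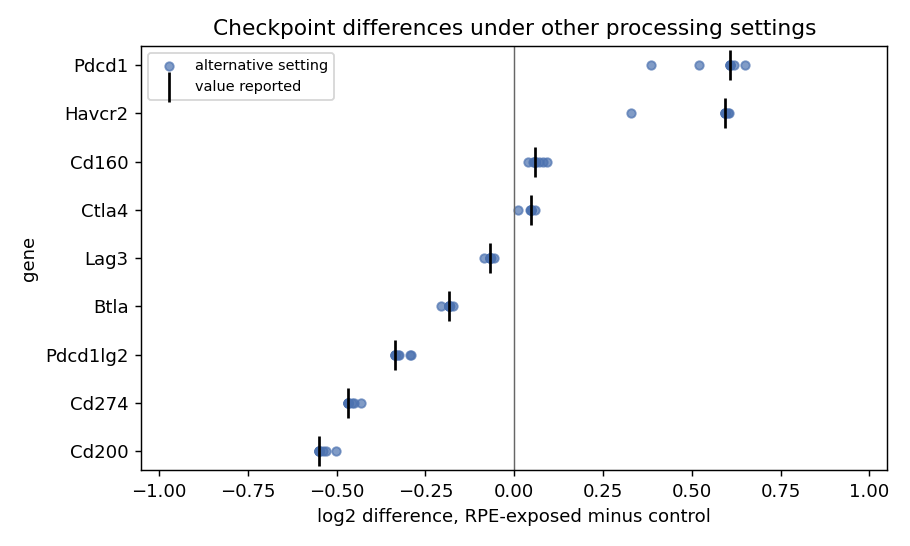
Log2 difference (RPE-exposed minus control) of the 9 checkpoint genes as reported (black ticks) and under each alternative processing (blue points). No gene crosses 0, and the widest ranges belong to Havcr2 (0.33 to 0.61) and Pdcd1 (0.38 to 0.65).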

How the data were processed

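The deposited values are linear intensities, 1 per probe set and array, from biotin-labelled cRNA on Affymetrix arrays per the labels' protocols. How the authors summarized and scaled them is not given in the sources used here. Gene names came from the platform's annotation, and all 9 member genes were found in RefSeq. The array's build is not named. Of 45101 probe sets, 64 controls were left out. Of a gene's probe sets, the one brightest on average (log2) stood for it. Signals under each array's median (15.9 and 16) were set to it. Of 18193 genes, 10011 were at or above this floor on both arrays and 1004 on 1. The difference was RPE-exposed minus control, with no further scaling. A fold of at least 2 was counted, with no test. The steps were tested on simulated data with planted changes larger than any checkpoint difference, only in genes well above the floor. That test does not cover differences of the size reported here, or a gene as dim as Havcr2. The 8 alternatives were median centring, quantile normalization, 3 other floors, adding 16 before the logarithm, averaging probe sets, and leaving out those whose names mark shared probes (x, s or a). The members and lists were chosen with earlier results of these data known. Named were all members, all compared partners and the 2 highest and 2 lowest genes of each pathway list, except where said. Python 3.11.15, numpy 2.4.6, pandas 2.3.3 and matplotlib 3.10.9 were used.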

Additional observations from a re-analysis of the deposited data

How the results depend on the processing

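No checkpoint gene reached 2-fold under any of the 8 alternatives, and Pdcd1 and Havcr2, 2 genes, reached 1.5-fold, a rule added after the data were seen. With 16 added neither did (0.52 and 0.33 on the log2 scale). The median of the checkpoint genes ran from -0.13 to -0.056. Under a 75th percentile floor Havcr2 gave no value, and Pdcd1, under that floor in control cells, was at least 0.38 higher on the log2 scale. The count of all genes 2-fold higher, 48 as reported, was 658 for a 25th percentile floor, 6 for a 75th percentile floor, 1730 for none and 23 with averaged probe sets. The count lower, 69 as reported, was 577, 16 and 1583 with these floors and 38 with 16 added. At 1.5-fold the counts were 343 higher and 420 lower. The PD-L1 inducer median moved to -0.24 with the 75th percentile floor, which leaves out dim genes and raises low signals to the floor (Il4 became -0.14), and the natural killer median to -0.27 without shared probe sets. No paired analysis was possible because each group has 1 array. Signal over background limits Havcr2 most.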
